A study of Mus musculus with 4 samples.

Results

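The genes described here are 34 genes of the intestinal epithelium, the single cell layer that lines the gut lumen, measured in preparations of lamina propria mononuclear cells (LPMCs) from mice. They were taken from a list of named genes of intestinal epithelial cells, by no threshold on a measured value, with earlier results of these data known. All 34 were found among the 48526 gene identifiers of the table, and all 34 passed the minimum level for testing. LPMCs are leukocytes isolated from the tissue beneath the epithelium, and epithelial cells are not the target of such a preparation. The study has 4 samples in 2 groups. In the wild-type group (2 samples) the mice had received wild-type CD4 T cells and are labelled with pronounced signs of colitis. In the DKO group (2 samples) they had received CD4 T cells that were double knockout for Hobit and Blimp-1, and are labelled with mild signs of colitis. Hobit and Blimp-1 are transcriptional repressors that act in tissue-resident lymphocytes, and by the labels the double knockout was in the transferred T cells. The sources used here do not give the strain, age or genotype of the recipients, the length of the transfer, the gut segment or whether animals were pooled.

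Values are rlog, a regularized log2 expression that pulls each gene towards its mean, most where reads are few. Depth per sample is unknown, since the values carry no read counts. Differences are DKO minus wild type in rlog units. A gene was called higher or lower at an adjusted p under 0.05 in limma, a linear model across all 13528 genes tested. The 2 biological replicates of a group are not described as separate mice. The p-values therefore rest in part on how much these particular samples vary, which may be technical. The rest of each variance estimate came from the other tested genes, with 8.9 prior degrees of freedom against 2 residual in the main fit. Genes whose replicates lay far apart for their level thus have smaller standard errors than their own replicates would give. In bulk RNA of this kind, fewer epithelial cells and less of a transcript per epithelial cell cannot be told apart.

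The intestinal epithelium renews itself from crypt stem cells, whose descendants become absorptive cells, mucus-secreting goblet cells and rarer hormone-secreting and tuft cells. Absorptive cells of the colon take up water and salt and exchange ions, goblet cells build the mucus layer that keeps bacteria away, and both release antimicrobial proteins. During colitis the antimicrobial lectins are known to be induced, and goblet cells are often depleted. The 34 genes were divided into 13 of epithelial identity and cell junctions, 8 of absorptive cells, 7 of goblet cells and mucus, 2 of stem and progenitor cells, and 4 of antimicrobial defence and antibody transport.

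To show the regulatory sequence at members on which the results below turn, the 250 bases before the RefSeq transcription start are given for 4 of them, from the GRCm38.p6 assembly, each 5′ to 3′ on the strand of the gene. Reg3b and Reg3g had the highest levels, Agr2 is a goblet gene that differed between replicates, and Olfm4 was the member that fell. Capitals mark matches on either strand to TTTATG (the core bound by CDX factors), to TTCNNNGAA (the STAT motif) and to TATAAA (the TATA box). No match in these 4 windows overlaps another. The RefSeq start used lies 16221 bases from the start of the GENCODE gene for Olfm4, 228 for Reg3b, 18 for Agr2 and 2 for Reg3g. The Olfm4 window and most of the Reg3b window therefore lie within the gene as GENCODE places it. Reg3b lies on the plus strand at chr6:78370635-78370884, Reg3g on the minus strand at chr6:78468875-78469124, Agr2 on the plus strand at chr12:35992675-35992924 and Olfm4 on the plus strand at chr14:80000052-80000301.
Reg3b: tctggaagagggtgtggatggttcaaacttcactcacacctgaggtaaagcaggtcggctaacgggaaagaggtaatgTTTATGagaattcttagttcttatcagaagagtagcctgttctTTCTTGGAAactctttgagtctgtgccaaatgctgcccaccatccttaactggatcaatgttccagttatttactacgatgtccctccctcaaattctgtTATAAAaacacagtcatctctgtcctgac
Reg3g: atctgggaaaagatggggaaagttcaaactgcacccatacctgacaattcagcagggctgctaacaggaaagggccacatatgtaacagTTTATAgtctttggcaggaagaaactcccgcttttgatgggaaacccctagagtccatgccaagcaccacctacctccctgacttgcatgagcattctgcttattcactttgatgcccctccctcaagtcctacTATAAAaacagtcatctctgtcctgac
Agr2: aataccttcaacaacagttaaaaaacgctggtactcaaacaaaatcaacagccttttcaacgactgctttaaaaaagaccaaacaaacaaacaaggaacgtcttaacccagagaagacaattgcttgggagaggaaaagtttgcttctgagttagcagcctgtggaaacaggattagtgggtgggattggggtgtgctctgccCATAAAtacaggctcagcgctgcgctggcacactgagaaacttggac
Olfm4: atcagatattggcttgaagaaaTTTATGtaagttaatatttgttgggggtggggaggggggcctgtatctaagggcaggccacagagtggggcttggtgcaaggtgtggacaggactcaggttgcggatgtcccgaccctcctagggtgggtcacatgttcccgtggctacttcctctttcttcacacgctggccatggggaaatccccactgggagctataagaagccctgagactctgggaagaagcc

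Of the 34 genes, 23 had an entry in the RefSeq promoter table. TTTATG was in 4 of these 23 windows (17.4%; Agr2, Epcam, Olfm4 and Reg3b), against 10.8% of 32536 windows of the same length at all genes. TATAAA was in 5 (21.7%; Krt20, Muc2, Reg3b, Reg3g and Slc26a3), against 12.3%. TTCNNNGAA was in 2 (8.7%; Phgr1 and Reg3b), against 7.04%, TGTTTAC (the FOX motif) in Cdx2, against 3.17%, and CAAAGTCCA (the HNF4 motif) in 0, against 0.387%. The windows of Reg3b and Reg3g, paralogs in the same gene cluster, were identical at 173 of 247 aligned bases (70.0%).

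Epithelial transcripts were present at substantial levels in all 4 samples. To compare genes, the log2 of the exonic length in kilobases was subtracted from rlog, and on this length-scaled log2 scale the median over all tested genes was 6.18. The mean level of 28 members was above that median, from Fabp2 at 6.95 to Reg3b at 14.16. Reg3b, a secreted C-type lectin that acts against bacteria at the mucosa, exceeded 99.8% of tested genes, and its relative Reg3g (12.09) exceeded 98.8%. Lypd8, a surface protein of colonic epithelium that holds flagellated bacteria off, followed at 11.60, and the keratin Krt8 at 11.39. Leukocyte genes had a median of 12.04 on the same scale over 8 genes, T cell genes 10.20 over 12 genes and the 13 identity genes 9.10.

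**Figure D1:**
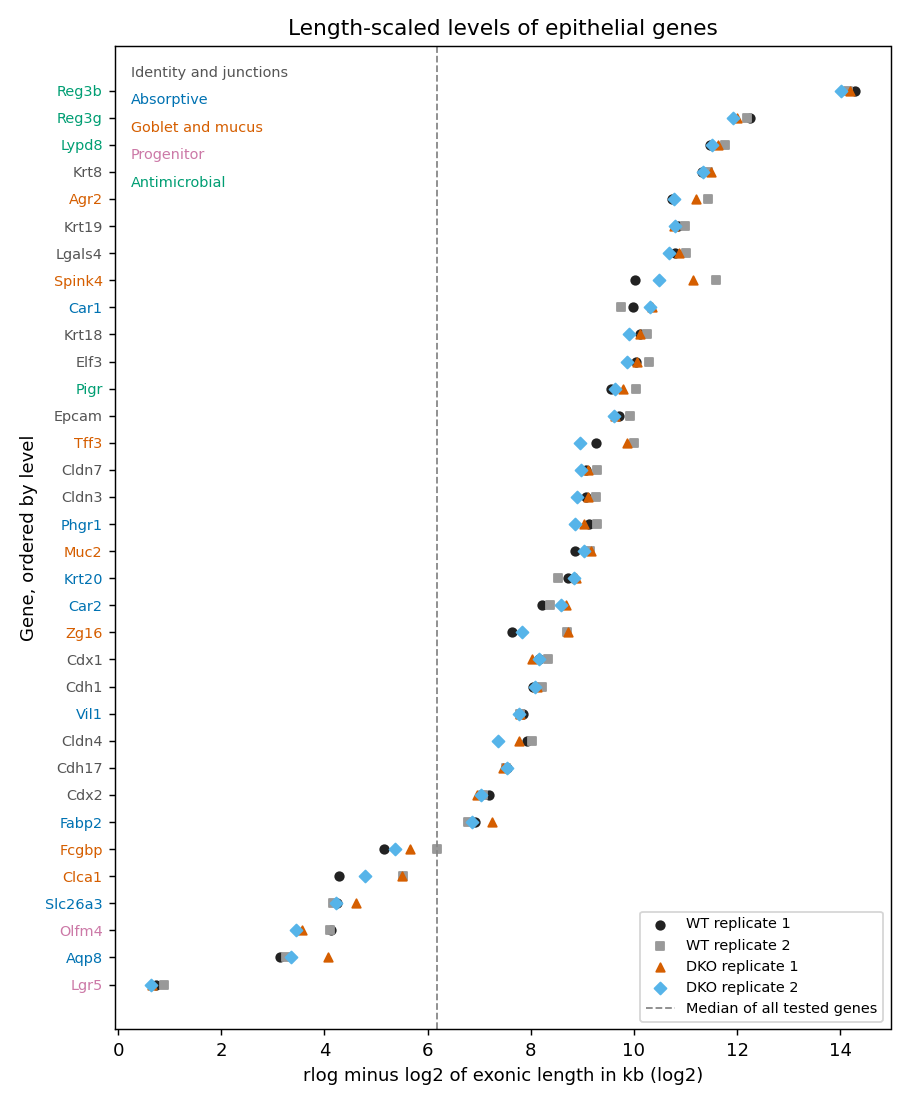
Length-scaled level (rlog minus log2 of exonic length in kb, x axis) of the 34 epithelial genes (y axis, ordered by mean, coloured by role), with 1 point per sample and the median of all tested genes as a dashed line. Reg3b is the highest at 14.16, Lgr5 the lowest at 0.72, and the points of Spink4 spread over 1.57.

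Reg3b and Reg3g led and Lgr5 came last in every sample, and most neighbours between them were close. Reg3b stood 2.07 above Reg3g, more than the range of either over samples (0.28 and 0.34), and Reg3g stood 0.49 above Lypd8. Between Car1 at 10.10 and Cdh17 at 7.52 neighbours were 0.42 apart at most, and Krt19 and Lgals4 (10.85 and 10.84), Car1 and Krt18 (both 10.10) or Cldn3 and Phgr1 (both 9.08) did not differ beyond their spread over samples. Fcgbp (5.59), Clca1 (5.02), the chloride-bicarbonate exchanger Slc26a3 (4.31), Olfm4 (3.81), the water channel Aqp8 (3.45) and the stem cell receptor Lgr5 (0.72) formed the low end. Within it, Olfm4 and Aqp8 changed places in DKO replicate 1, and Fcgbp and Clca1 stood 0.57 apart with ranges over samples of 1.03 and 1.24. Length mattered for some: Muc2 was 6th by rlog alone and 18th per length, and Spink4 17th and 8th.

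The label of colon epithelium was compared with genes of other gut regions and cell types. Most of the small-intestinal genes listed were low. The lactase gene Lct was at rlog 1.73 to 1.83, the sucrase gene Sis at 1.20 to 1.37 and Apoa4, an apolipoprotein of small-intestinal absorptive cells, at -1.97 to -1.96, while Fabp1 was listed at 0 in all samples. Of 13 genes of that list 3 passed the minimum level, with length-scaled levels of 4.77 to 9.64. Of these, Lyz1 and Anpep, at rlog 9.43 to 10.49, are also made by phagocytes or stroma, and the other is not reported here by name. Car4, a carbonic anhydrase of colonic absorptive cells, was at 6.76 to 7.72, and the part of other cells in that level was not tested. By length-scaled level, the absorptive members Slc26a3 and Aqp8 exceeded 20.9% and 11.6% of tested genes, and Fabp2 exceeded 63.4%. Hoxb13, a homeobox gene of the hindgut that was looked up after the values were seen, stood at 5.81 and 6.82 in wild type and 6.28 and 5.72 in DKO. Of 10 pancreas genes 2 passed the minimum level. Among leukocyte genes, Ptprc, which encodes CD45, was at 14.02 to 14.26, Cd4 at 12.00 to 12.17 and Lyz2, the lysozyme of macrophages and neutrophils, at 14.30 to 14.93, whereas the B cell gene Pax5 was listed at 0.

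Most of the epithelial genes could not be told apart between the groups. In limma, 2 of the 34 rose in DKO, Car1 and Car2, against 9.92% of all tested genes, and 1 fell, Olfm4, against 4.85%. An unadjusted p under 0.05 was reached by 8 members (23.5%), against 26.4% of all tested genes. With every gene not at 0 throughout kept in the fit (25186 genes), none of the 3 was called (adjusted p = 0.122, 0.16 and 0.0777 for Car1, Car2 and Olfm4). The groups did not overlap for 14 of 34 members (41.2%), against 55.3% of all tested genes. Of these, 10 were lower in DKO (30.3% of all tested genes) and 4 higher (25.0%). For 10 members (29.4%) the difference between group means exceeded both gaps between replicates, against 43.1%. The median difference over the members was -0.10, against -0.022 over all tested genes. Leaving out wild-type replicate 1, wild-type replicate 2, DKO replicate 1 or DKO replicate 2 gave -0.23, 0.019, -0.17 and -0.014, and quantile normalization gave -0.00044. For 22 members the 95% interval of the difference lay within 0.5 of zero in both directions. Over the same samples, all 14 fibroblast and muscle genes and all 12 endothelial genes rose (medians 1.11 and 1.17), all 12 neutrophil genes and 11 of 12 macrophage and monocyte genes fell (medians -1.46 and -0.48), and 2 of 8 general leukocyte genes fell (median -0.29), and the part of these shifts in the epithelial values was not tested.

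**Figure D2:**
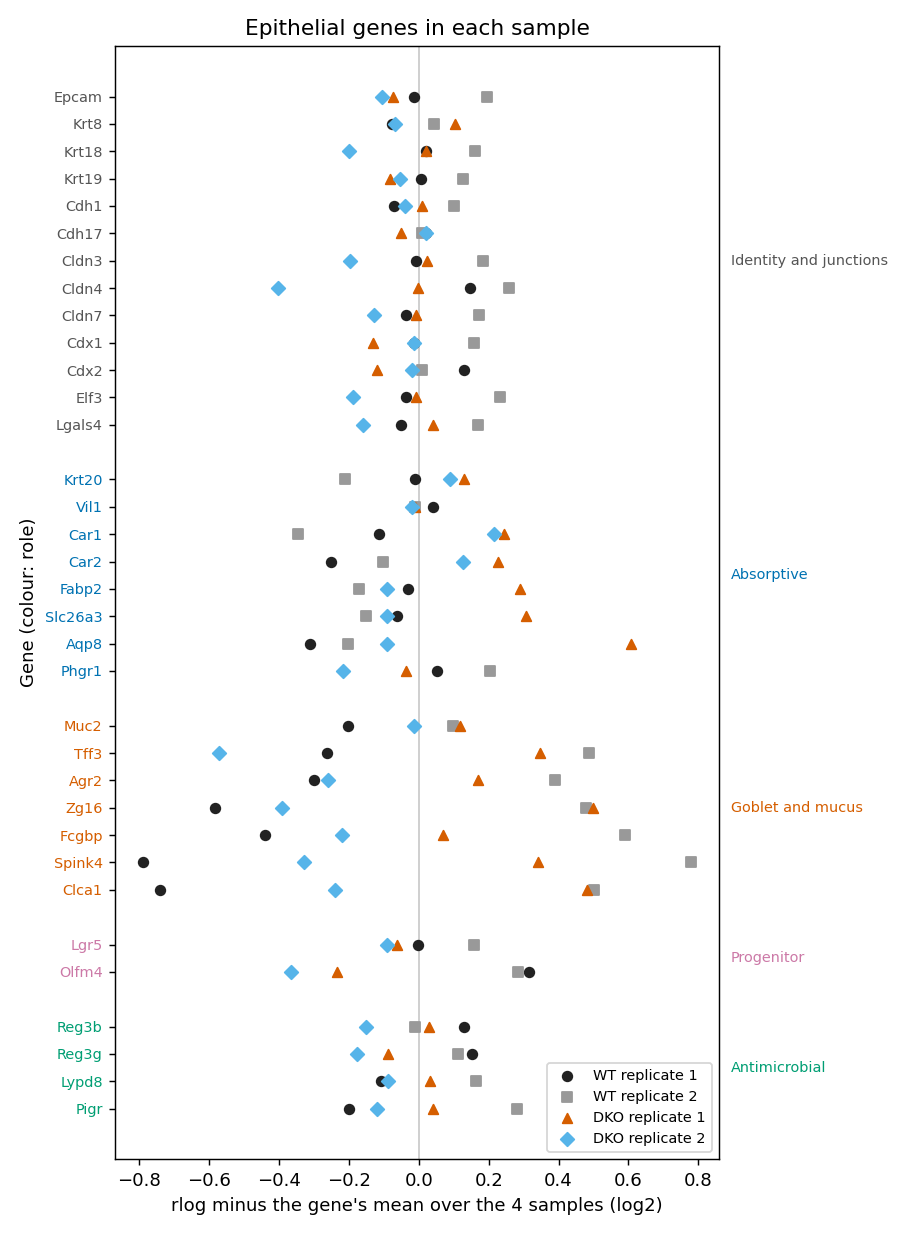
Each sample's rlog minus the gene's mean over the 4 samples (x axis, log2) for the 34 epithelial genes (y axis), grouped by role, with 1 symbol per sample. Goblet genes spread widely with wild-type replicate 2 and DKO replicate 1 on the right, while the groups part for 14 of the 34 genes, among them Car1, Car2 and Olfm4.

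None of the 13 genes of epithelial identity and junctions passed the test in limma (0 called, 1 with an unadjusted p under 0.05). Over all tested genes the shares were 14.8% called in either direction and 26.4% with an unadjusted p under 0.05. Epcam, an adhesion molecule carried by most epithelial cells, had rlog values of 10.84 and 11.05 in wild type and 10.78 and 10.75 in DKO. The groups were apart by less than the gap between the wild-type samples, and the difference was -0.18 (95% interval -0.38 to 0.012). Krt8 and Krt18, which pair to form the simple epithelial keratin filament and lie 23.7 kb apart on chromosome 15, differed by 0.035 (interval -0.17 to 0.24) and -0.18 (-0.39 to 0.027). Krt19 was at -0.14, the adherens cadherin Cdh1 at -0.032 and the intestinal cadherin Cdh17 at -0.026.

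Claudins seal the tight junction, and 3 were members. Cldn4, on chromosome 5 beside Cldn3, had 8.78 and 8.89 in wild type and 8.63 and 8.23 in DKO. Both DKO values were below both wild-type values, with DKO replicate 2 the farthest. The difference of -0.41 (SE 0.124) just missed the threshold (adjusted p = 0.0503 in limma). It passed with a minimum mean rlog of 6, a robust variance estimate or sample weights (adjusted p = 0.0481, 0.0432 and 0.0379). Omitting DKO replicate 1 gave -0.60 (adjusted p = 0.000167) and omitting DKO replicate 2 gave -0.21 (adjusted p = 0.188). Cldn3 (-0.17) and Cldn7 (-0.14) had intervals that reached past zero. Among the regulators, the intestinal homeobox genes Cdx1 and Cdx2 stood at -0.15 and -0.14, and Elf3, an epithelial ETS factor, at -0.19. The lectin Lgals4 was at -0.12. The difference was negative for 12 of these 13 genes, against 55.3% of all tested genes. With quantile normalization it was negative for 10 of 13, and Cdh1 and Cdh17 had the opposite sign.

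Absorptive genes included both members that rose. Of the 8, 5 reached an unadjusted p under 0.05 in limma, with Phgr1 among them as a lower gene, against 26.4% of all tested genes. The groups did not overlap for 6 of 8, against 55.3%. The difference was negative for 2 of 8, also against 55.3%, with a median of 0.22. Leaving out 1 sample gave medians of 0.093 to 0.39. No set test was run. Car1 and Car2, cytosolic carbonic anhydrases that supply protons and bicarbonate for ion exchange, lie 77.9 kb apart on chromosome 3 (from 14766216 to 14900770, GRCm38) with Car3 between them. Car1 had rlog values of 10.30 and 10.07 in wild type and 10.66 and 10.63 in DKO. Both DKO samples were above both wild-type samples, with a mean of 10.19 ± 0.159 (SD, n = 2) against 10.65 ± 0.021 and a fold of 1.38 (log2 0.46, SE 0.0901, adjusted p = 0.00463 in limma). Omitting wild-type replicate 2 ended the call (0.35, adjusted p = 0.0712).

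Car2 had 9.49 and 9.64 in wild type and 9.97 and 9.87 in DKO, again without overlap, a fold of 1.28 (log2 0.35, SE 0.0873, adjusted p = 0.0192 in limma). Omitting wild-type replicate 1 ended the call (0.27, adjusted p = 0.19). Their neighbour Car3 (3.26 to 3.43) was under the minimum level and Car13, in the same gene family, was at 0.0082 (adjusted p = 0.974), both looked up after the values were seen. Car1 and Car2 are also erythroid genes. Of 11 erythroid genes listed 5 were tested and 0 called in limma (1 at an unadjusted p under 0.05, the globin gene Hbb-bt), with differences from 0.065 for Hba-a2 to 0.21 for Hbb-bt. Over all tested genes 14.8% were called. All 5 differences were positive. The median rlog of the 5 tested erythroid genes was 11.33 and 11.19 in wild type and 11.36 and 11.28 in DKO. The erythroid anion exchanger gene Slc4a1 lay lower, at rlog 2.73 to 2.91. The part of erythroid RNA in the rise of Car1 and Car2 was not tested.

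The other absorptive members did not pass. Krt20, a keratin of mature surface cells, had 9.68 and 9.48 in wild type and 9.82 and 9.78 in DKO, without overlap (0.22, adjusted p = 0.133 in limma). Aqp8 had 3.80 and 3.91 in wild type and 4.72 and 4.02 in DKO, so that most of its difference of 0.52 (interval 0.11 to 0.92, adjusted p = 0.0928) came from DKO replicate 1. Slc26a3 and the fatty acid binding protein gene Fabp2 showed the same shape, with DKO replicate 1 at 7.29 and 7.19 and the other samples at 6.83 to 6.92 and 6.73 to 6.87. Without DKO replicate 2, 5 of 8 absorptive genes were called higher in place of 2, since Aqp8 (0.86), Slc26a3 (0.41) and Fabp2 (0.39) then passed. Without wild-type replicate 1 or 2, 1 of 8 was called. Phgr1, a small glycine- and histidine-rich protein of the gut epithelium, went the other way (-0.25, interval -0.48 to -0.024, adjusted p = 0.143), and Vil1, the villin of brush border actin bundles, was at -0.032 (interval -0.21 to 0.14).

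**Figure D3:**
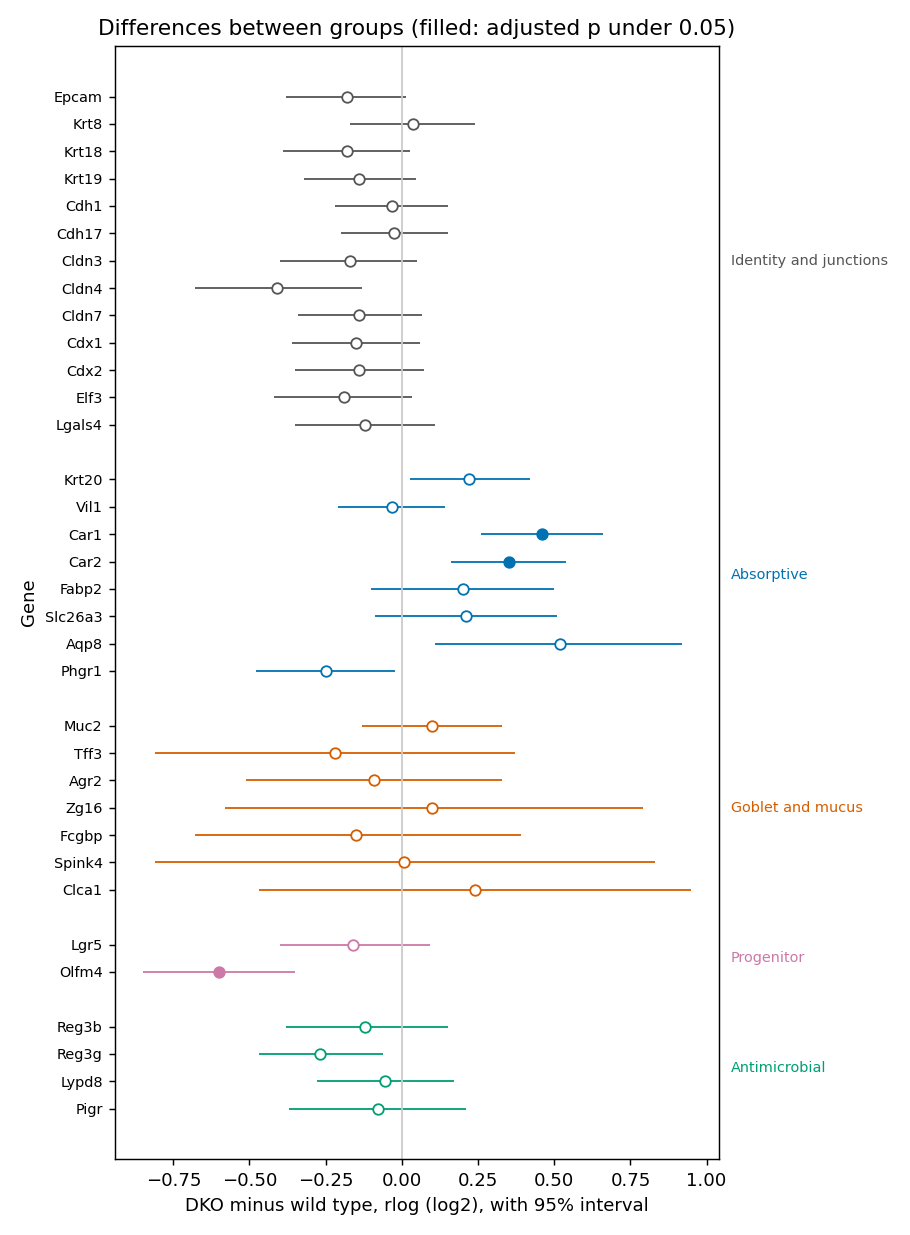
DKO minus wild type in rlog (x axis, log2) with the 95% interval from limma for each of the 34 epithelial genes (y axis, coloured by role), filled where the adjusted p was under 0.05. Car1, Car2 and Olfm4 are the 3 filled points, and the intervals of the goblet genes other than Muc2 are the widest, that of Spink4 running from -0.81 to 0.83.

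The goblet genes differed between replicates and not measurably between groups. Of the 7 members 0 were called in limma, against 14.8% of all tested genes, and 0 had an unadjusted p under 0.05, against 26.4%. All 7 were higher in wild-type replicate 2 than in replicate 1 and higher in DKO replicate 1 than in replicate 2. Spink4, a protease inhibitor secreted by goblet cells, had rlog values of 8.95 and 10.52 in wild type and 10.08 and 9.41 in DKO. The wild-type samples thus stood 1.57 apart (a fold of 2.96) and the DKO samples 0.66 apart (1.58), while the group means of 9.74 ± 1.11 and 9.74 ± 0.469 (SD, n = 2) were the same to within 0.0086.

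Clca1, a metalloprotease of the mucus, was at 6.20 and 7.44 in wild type and 7.42 and 6.70 in DKO. Zg16, a lectin that binds gram-positive bacteria in mucus, was at 7.97 and 9.03 in wild type and 9.05 and 8.16 in DKO. For both, the higher sample of one group met the higher sample of the other, and gaps within groups (0.71 to 1.24) were larger than the differences between groups (0.24 and 0.10). Tff3, a trefoil peptide of mucosal repair, stood at 8.24 and 8.99 in wild type and 8.85 and 7.93 in DKO. Agr2, a disulfide isomerase needed for mucin folding, stood at 11.11 and 11.80 against 11.58 and 11.15, and Fcgbp, a protein cross-linked to mucin, at 8.54 and 9.57 against 9.05 and 8.76. Muc2, the gel-forming mucin itself, varied least, with 11.68 and 11.98 against 12.00 and 11.87. Its interval of -0.13 to 0.33 was the one goblet interval within 0.5 of zero. Those of Agr2 (-0.51 to 0.33), Tff3 (-0.81 to 0.37) and Fcgbp (-0.68 to 0.39) passed 0.5 only on the lower side and that of Clca1 (-0.47 to 0.95) only on the upper, while those of Zg16 (-0.58 to 0.79) and Spink4 (-0.81 to 0.83) passed it on both.

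Leaving out a sample turned the sign of this list. All 7 goblet differences were negative without wild-type replicate 1 (median -0.44) and 6 of 7 without DKO replicate 1 (median -0.30). In contrast 0 of 7 were negative without wild-type replicate 2 (median 0.37) and 1 of 7 without DKO replicate 2 (median 0.24). Spink4 itself was at -0.77 without wild-type replicate 1 (adjusted p = 0.00356 in limma) and at 0.79 without wild-type replicate 2 (adjusted p = 0.00318), so a single wild-type sample set which way it would have been read. Fcgbp was at -0.66 without wild-type replicate 1 (adjusted p = 0.00171), Tff3 at -0.68 without DKO replicate 1 (adjusted p = 0.00422) and Clca1 at 0.86 without wild-type replicate 2 (adjusted p = 0.00658).

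To set these gaps beside those of other genes, genes were counted that were at least 0.4 higher in wild-type replicate 2 than in replicate 1 and also at least 0.4 higher in DKO replicate 1 than in replicate 2, a rule chosen after the values were seen. Its direction was that of all 7 goblet members, so their count and order under it describe them and are no test. Of all 13528 tested genes 30 (0.222%) met it, and 11 were at least 0.4 lower in both comparisons. Among the 30 were 5 of the 7 goblet members (Agr2, Clca1, Spink4, Tff3 and Zg16) and 0 of the 27 other members. By the smaller of the gaps, Zg16, Tff3, Clca1 and Spink4 were the first 4 of the 30 that met the rule. Of 19 other goblet and secretory genes tested 1 met it, Retnlb, a goblet lectin, at 9.75 and 10.28 in wild type and 10.46 and 9.76 in DKO. All 19 of that list were higher in wild-type replicate 2 (median gap 0.36), and 15 were higher in DKO replicate 1 (median gap 0.12). Transcripts of the mitochondrial genome moved with the goblet genes: 6 of 7 tested mitochondrial protein-coding genes met the rule, with median rlog values of 14.82 and 15.31 in wild type and 15.52 and 15.02 in DKO. With a minimum of 0.5 in place of 0.4, the rule held for 4 of 7 goblet members and for 1 of 11 mitochondrial genes of all kinds, against 8 of 11 at 0.4. The smooth muscle gene Des moved the other way, from 10.24 to 9.21 between the wild-type samples and from 11.26 to 10.81 between DKO replicates 2 and 1. The part of the mitochondrial and muscle values in the goblet gaps was not tested.

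**Figure D4:**
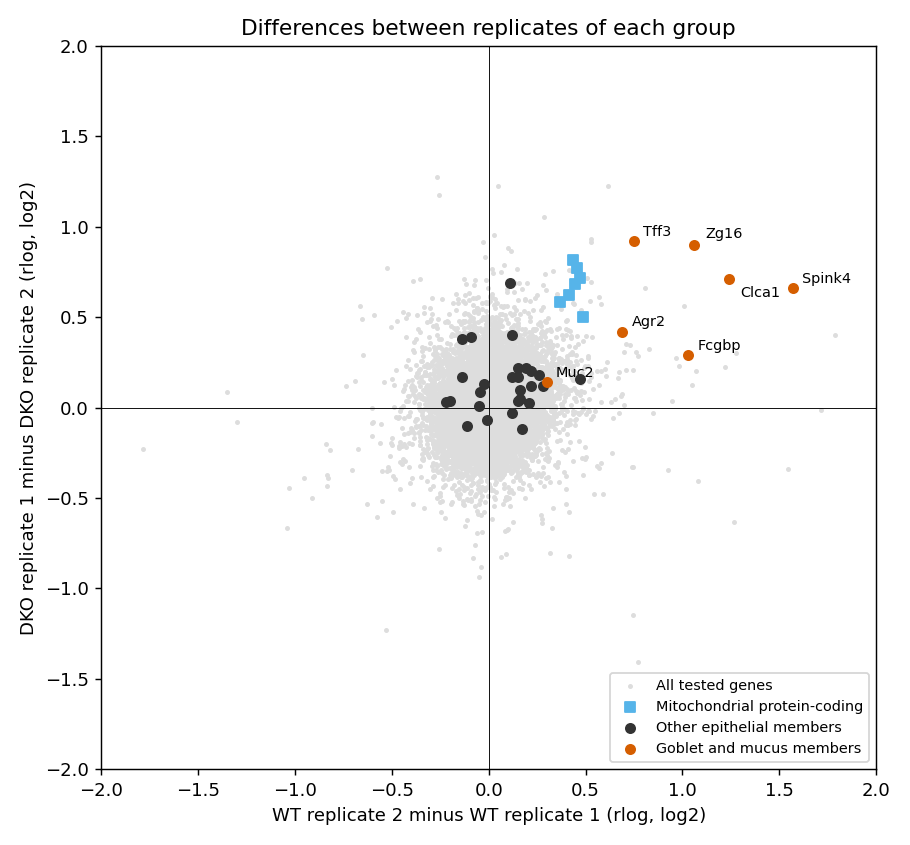
Gap between the wild-type samples (replicate 2 minus 1, x axis) against the gap between the DKO samples (replicate 1 minus 2, y axis), both in rlog, for all tested genes (2 lie outside the plotted range), the mitochondrial protein-coding genes, the goblet members and the other members. Zg16, Tff3, Clca1 and Spink4 lie at the upper right, with gaps of 0.75 to 1.57 and 0.66 to 0.92.

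Of the stem and progenitor members, Olfm4 fell. Olfm4, a secreted glycoprotein that marks crypt-base cells in human gut and is also made by some neutrophils in the mouse, had rlog values of 5.69 and 5.66 in wild type and 5.14 and 5.01 in DKO. The replicates of each group lay within 0.13 of each other and the groups did not overlap (5.68 ± 0.0192 against 5.07 ± 0.095, SD, n = 2), a log2 difference of -0.60 (SE 0.114, adjusted p = 0.0038 in limma) or a fold of 0.658. It kept its call in each fit that left out a sample (-0.67 to -0.54). All 12 neutrophil genes also fell in these samples (median -1.46), and the part of neutrophils in the fall of Olfm4 was not tested. Lgr5, the Wnt-responsive receptor of crypt stem cells, was near the minimum level for testing, at 4.08 and 4.24 in wild type and 4.02 and 3.99 in DKO (-0.16, interval -0.40 to 0.092, adjusted p = 0.428).

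The antimicrobial and transport genes had the highest median length-scaled level of the groups of members (11.84), although Pigr was 12th of 34. In limma 0 of 4 were called, against 14.8% of all tested genes, and 1 had an unadjusted p under 0.05, against 26.4%. Reg3b had rlog values of 14.48 and 14.34 in wild type and 14.38 and 14.20 in DKO, with overlapping groups (-0.12, interval -0.38 to 0.15). Reg3g had 13.32 and 13.28 against 13.08 and 12.99. These did not overlap, but the difference of -0.27 (SE 0.0932) did not pass (adjusted p = 0.0854), except without DKO replicate 1 (-0.31, adjusted p = 0.04). Reg3b and Reg3g lie 92.8 kb apart on chromosome 6 with Reg3d, Reg3a, Reg2 and Reg1 between them, looked up after the values were seen, and on the length-scaled log2 scale those 4 genes were at 2.85 to 4.70, against 14.16 for Reg3b and 12.09 for Reg3g. Since these paralogs are alike in sequence, reads could have been split between them in the authors' counting.

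Lypd8 stood at 11.85 and 12.12 in wild type and 11.99 and 11.87 in DKO (-0.054, interval -0.28 to 0.17). Pigr, which carries immunoglobulin A and M across the epithelium, stood at 11.56 and 12.04 against 11.80 and 11.64 (-0.079, interval -0.37 to 0.21). All 4 differences of this group were negative (55.3% of all tested genes), but 1 of 4 with quantile normalization.

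Other epithelial genes, from 7 lists of junctions, brush border and transport, goblet, stem, transcription factor, enteroendocrine and tuft genes, were counted in the same way: of 120 tested 7 rose and 3 fell in limma, against 9.92% and 4.85% of all tested genes, with a median of -0.043. In the 28 tested brush border and transport genes Car4 rose (0.66, SE 0.155, adjusted p = 0.0145) and the villin-like gene Vill fell (-0.43, adjusted p = 0.0124). The call of Vill was lost when either wild-type sample was left out (adjusted p = 0.0618 and 0.07). Car4 was at 6.83 and 6.76 in wild type and 7.72 and 7.18 in DKO. Without DKO replicate 1 its difference fell to 0.39 and its call was lost. All 12 endothelial genes also rose (median 1.17), and the part of cells other than epithelium in the Car4 value was not tested. Of 23 junction genes the scaffold Tjp1, which endothelium also expresses, rose (0.55, adjusted p = 0.00402).

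Of 19 goblet and secretory genes Tff1, a trefoil peptide best known from the stomach, fell from 8.43 and 8.45 in wild type to 7.65 and 7.97 in DKO (-0.63, SE 0.114, adjusted p = 0.00296 in limma). This was unlike Tff3 in that its wild-type samples were nearly equal. Of 17 stem cell genes Lrig1 (0.49, adjusted p = 0.00418) and Tnfrsf19 (0.46, adjusted p = 0.0383) rose, both of which stromal cells express too. Tnfrsf19 passed without DKO replicate 2 but in none of the other 3 fits that left out a sample (adjusted p = 0.0653 to 0.185), nor with quantile normalization (adjusted p = 0.0976). None of 20 transcription and splicing factors was called, against 14.8% of all tested genes, and 4 had an unadjusted p under 0.05 in limma, against 26.4%. Hnf4a, a nuclear receptor of intestinal differentiation, was at 8.96 to 9.02 in every sample. Tph1, the serotonin-synthesis enzyme of enterochromaffin and mast cells, rose among 8 enteroendocrine genes (0.41, adjusted p = 0.0324), beside a rise of 4 of 8 mast cell genes whose part was not tested. Its call was lost when either wild-type sample (adjusted p = 0.192 and 0.0869) or DKO replicate 1 (0.0952) was left out, and with quantile normalization (adjusted p = 0.132). Among 5 tuft genes tested of 11 listed, Dclk1, which is also neuronal and stromal, rose (0.75, adjusted p = 0.00647). The tuft cell genes Pou2f3, Il25 and Chat, at -0.70 or lower, were the 3 of the 11 under rlog 0.5 in every sample.

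Genes of inflamed epithelium changed in both directions, with 3 of 16 higher and 3 lower in limma, against 9.92% and 4.85% of all tested genes. Lcn2, a siderophore-binding protein of neutrophils and epithelium, fell by 1.25 (adjusted p = 1.03e-05), Saa3 by 1.03 (adjusted p = 9.73e-05) and Nos2 by 0.74 (adjusted p = 0.00918). Clu, which encodes clusterin (1.32, adjusted p = 2.89e-05), Saa1 (0.63, adjusted p = 0.0158) and Ido1, a tryptophan-degrading enzyme (0.56, adjusted p = 0.0022), rose. The call of Saa1 was lost when wild-type replicate 1 (0.49, adjusted p = 0.0759) or DKO replicate 1 (0.42, adjusted p = 0.0503) was left out, and that of Nos2 with a robust variance estimate (adjusted p = 0.156). Lcn2, Saa3 and Nos2 are also made by leukocytes. In these samples all 12 neutrophil genes fell (median -1.46). All 14 fibroblast and muscle genes and all 12 endothelial genes rose (medians 1.11 and 1.17). The part of cells other than epithelium in the falls and rises of this list was not tested. Duox2 and Duoxa2, the epithelial NADPH oxidase and its maturation factor, were at -0.10 and -0.37 (adjusted p = 0.635 and 0.0678), and Dmbt1, a mucosal scavenger receptor, was at -0.034.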

How the data were processed

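RNA of 4 mouse LPMC samples was sequenced after stranded mRNA library preparation, per the labels' protocols. The deposited values are log2 values made by the authors with the regularized log (rlog) transformation, per the file name; whether it came from DESeq2 is not stated, though the submitters' processing notes name DESeq2, with the aligners STAR 2.5.4a and BWA 0.7.14-r1136, featureCounts and Subread 1.5.2, the trimmer cutadapt 1.9.1, bcl2fastq 2.17.1.14 and the build GRCm38. The sources used here do not give the strand setting of the counting, the depth or read counts, and no count test was run. The rlog shrinks differences of genes with few reads, and 2 columns that match no labelled sample were not used, although they may have entered that shrinkage. Replicates were numbered in accession order. The 13528 genes whose rlog averaged 4 or more were tested with limma 3.58.1 in R 4.3.3 (group as the only term, mean-variance trend, two-sided, Benjamini-Hochberg adjustment over all 13528), a procedure tested on simulated data. The residual degrees of freedom were 2 and the prior 8.9. Symbols, exonic lengths and positions came from GENCODE M21 (GRCm38), which matched 48144 of 48526 identifiers, and summaries and plots used Python 3.11.15. Alternatives covered the filter, variance model, centring, quantile normalization, sample weights, threshold and leaving out each sample. The members and lists were chosen with earlier results of these data known. All members were named. From other lists the text names the up to 3 tested genes with the smallest p, those a count refers to (at most 7 in 1 direction) and up to 3 defining markers. Others are marked as looked up after the values were seen. Some genes counted in these lists are not reported here by name.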

Additional observations from a re-analysis of the deposited data

How the results depend on the processing

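No paired analysis was possible because the labels carry no replicate numbers. With no filter (25186 genes, those at 0 in all samples left out), 181 genes were called higher and 25 lower in place of 1342 and 656, and 0 members were called in either direction, so the absorptive and progenitor counts were also 0. The cause was not tested. A minimum mean rlog of 6 gave 878 genes higher, 1 identity gene lower (Cldn4) and 0 progenitor genes lower, since Olfm4 was then not tested. A robust variance estimate or sample weights gave 2 members lower in place of 1, with 1 identity gene among them. At an adjusted p under 0.01, 268 genes were lower and 1 member, an absorptive gene, was higher. At 0.1, 1028 genes and 3 members were lower, 1 of identity and 1 antimicrobial. Leaving out 1 sample gave 1008 to 1660 genes higher and 324 to 1222 lower, 1 to 5 members higher and 1 to 5 lower. By role, it gave 0 to 2 identity genes lower, 1 to 5 absorptive genes higher, 0 to 2 goblet genes higher, 0 to 2 goblet genes lower and 0 to 1 antimicrobial genes lower. The lone sample left in a group was assumed to vary like the other group, with 1 residual degree of freedom. The members' median ran from -0.23 to 0.019. A gap minimum of 0.3 gave 78 genes and 0.5 gave 14, in place of 30. With quantile normalization the sign turned for Cdh1 (0.028), Cdh17 (0.015), Vil1 (0.005), Reg3b (0.14), Lypd8 (0.034), Pigr (0.0095) and Ptprc (0.023), and with median centring for Spink4 (-0.0015). Leaving out 1 sample turned the sign of Krt8 (-0.051 to 0.12), Cdh1 (-0.11 to 0.049), Cdh17 (-0.061 to 0.0085), Muc2 (-0.047 to 0.25), Tff3 (-0.68 to 0.24), Agr2 (-0.44 to 0.25), Zg16 (-0.43 to 0.63), Fcgbp (-0.66 to 0.37), Spink4 (-0.77 to 0.79), Clca1 (-0.38 to 0.86), Lypd8 (-0.19 to 0.084), Pigr (-0.32 to 0.16) and Retnlb (-0.25 to 0.44). With 2 samples a group and unknown depth, a group difference of the goblet genes cannot be bounded closely. Their 95% intervals borrow variance from other genes and are narrower than their own replicates would give.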
